A study of Arabidopsis thaliana with 44 samples.

Results

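Transcripts were compared between shoots of the Arabidopsis thaliana mutant pie1-5 and WT shoots. The comparison takes the 6 RNA-seq libraries labelled pie1-5 1, 2 and 3 and WT 1, 2 and 3, out of 12 RNA-seq libraries and 44 samples in the series. The other 6 RNA-seq libraries, from the mutants pkl-1 and clf-28, entered the filter on low counts, the scaling and the estimate of the spread between libraries. They were not part of the contrast. All plants had chilled seeds, grew in soil under 16 h of light and were sampled at 3 weeks. The series design text calls the 3 libraries of a genotype independent biological replicates. The labels give neither the number of plants in a library, nor the hour of harvest, nor the ecotype, nor what the pie1-5 allele changes in the gene. A reads-per-gene count therefore need not show the mutation itself.

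PIE1 is the ATPase of the SWR1 complex, a remodeler that exchanges histone H2A in nucleosomes for the variant H2A.Z. Its other subunits include the actin-related protein ARP6 and the zinc finger protein SWC6. In Arabidopsis, H2A.Z sits at the first nucleosomes of many active genes and along the bodies of genes that respond to environment or stress. Mutants in the complex are known for early flowering, with low transcript levels of the floral repressor FLC, and for altered defence and temperature responses.

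Read totals over 33341 genes were 32242621, 30478882 and 26058237 in pie1-5 and 26459038, 31276098 and 24913739 in WT. Between 30.8% and 36.2% of the reads came from plastid genes, and from genes of the mitochondrial genome came 6.70% to 7.09% in pie1-5, against 5.18% to 5.86% in WT. Levels below are CPM, the reads of a gene per 1000000 reads of its library, with totals adjusted by edgeR's TMM factor. Where 3 values follow each other for a genotype, they belong to its libraries 1, 2 and 3. A level reflects all cells of a shoot, so fewer cells of a type and less RNA per cell cannot be told apart.

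The library pie1-5 1 stood apart in clock genes before any comparison was made. LHY, a morning-phased MYB factor of the circadian clock, had 59.6 CPM in pie1-5 1 and 0.573 and 1.16 CPM in pie1-5 2 and 3, against 3.71, 3.95 and 2.99 CPM in WT. PRR5, a repressor that is expressed later in the day, had 1.12, 27.8 and 30.2 CPM in pie1-5, against 6.79, 7.20 and 9.93 CPM in WT. So by LHY and PRR5 pie1-5 1 lay on the morning side of all WT libraries and pie1-5 2 and 3 on the evening side. Not every clock gene followed this order. GI and LUX, evening genes given below, were above all WT libraries in pie1-5 1 too. They had 7.00 and 10.6 CPM there, against at most 5.55 and 7.01 CPM in WT. The 6 pkl-1 and clf-28 libraries had 0.774 to 1.32 CPM of LHY and 34.5 to 47.3 CPM of PRR5, levels nearer to those of pie1-5 2 and 3 than to those of WT. Time of day and genotype cannot be told apart for genes that follow the clock, and leaving out pie1-5 1 does not make the remaining libraries alike in phase. Across the genes tested, which are not independent replicates, log2 CPM of pie1-5 1 correlated with pie1-5 2 and 3 at r = 0.919 and 0.922, against 0.961 between pie1-5 2 and 3 and 0.940 to 0.948 within WT. Among 6324 genes with a mean of 10 CPM or more in pie1-5, pie1-5 1 was over 4-fold from the mean of the other pie1-5 libraries at 204 genes, pie1-5 2 at 24 and pie1-5 3 at 38. Results are therefore given with all libraries and again without pie1-5 1.

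Of 20375 genes that passed the filter on low counts, 775 were higher (3.8%) and 725 lower (3.56%) in pie1-5 than in WT, together 7.36%. A gene was called where the Benjamini-Hochberg adjusted p of edgeR's quasi-likelihood F test was below 0.05. Changes of at least 2-fold made up 611 of the higher and 469 of the lower calls. Median log2 fold changes were 1.46 over the higher calls and -1.20 over the lower calls. All pie1-5 libraries lay above all WT libraries for 726 of the 775 genes and below them for 714 of the 725. Over all genes tested, 12.9% lay wholly above and 12.7% wholly below.

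Leaving out pie1-5 1 gave more calls, 1029 higher (5.05%) and 979 lower (4.8%), although 1 library fewer was used. Both fits called 1231 genes alike, which is 82.1% of the calls with all libraries and 61.3% of those without pie1-5 1. Another 394 higher and 383 lower genes were called only without it, and 140 and 129 only with it. Of the genes called without pie1-5 1, 43 had the opposite sign with all libraries. Leaving out 1 WT library gave fewer calls instead, down to 374 higher and 381 lower without WT 3. With every library left out in turn, 246 genes stayed higher and 250 stayed lower in every fit.

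**Figure D1:**
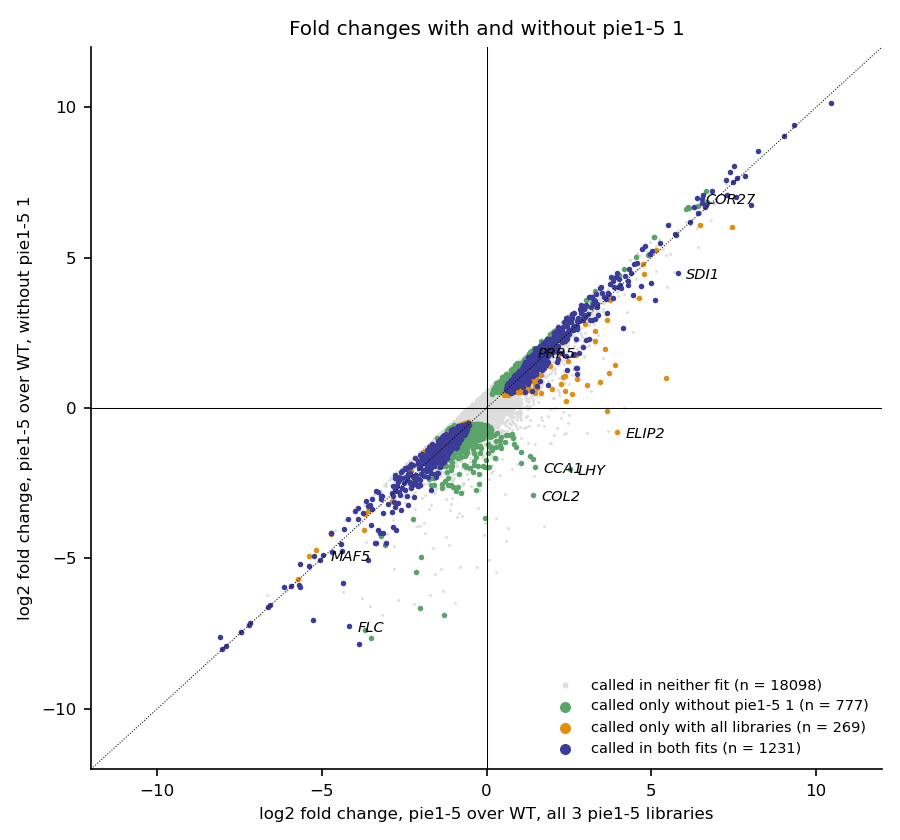
Log2 fold change of pie1-5 over WT for each of the 20375 genes tested, with all 3 pie1-5 libraries on the x axis and without pie1-5 1 on the y axis. Colours show the fit or fits in which a gene was called. Most called genes lie along the diagonal. Clock genes such as LHY (2.52 with all libraries, -2.03 without pie1-5 1) lie in the lower right quadrant.

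The authors' deposited table of 18489 genes lists 1064 genes as higher (5.75%) and 918 as lower (4.97%) at an adjusted p below 0.05. Of the genes called here and present in that table, the authors' deposited table gives 745 higher and 710 lower as well, and 8 as not called. It also calls 315 higher and 208 lower genes that were not called here.

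To describe groups of genes, 36 lists with 460 entries were examined, of which 412 were tested. Their counts with all libraries are read against the background of 3.8% higher and 3.56% lower, and those without pie1-5 1 against 5.05% and 4.8%. Every other fit has its own total of calls, so a list's counts from different fits do not share a background. A fit of only the 6 pie1-5 and WT libraries gave 306 higher and 200 lower calls. It called no member of the lists of SWR1 and H2A.Z, endoplasmic reticulum chaperones, early flavonoid, late anthocyanin, photosystem and antenna, cell cycle, DNA damage, seed maturation and epidermis and guard cell genes.

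**Figure D2:**
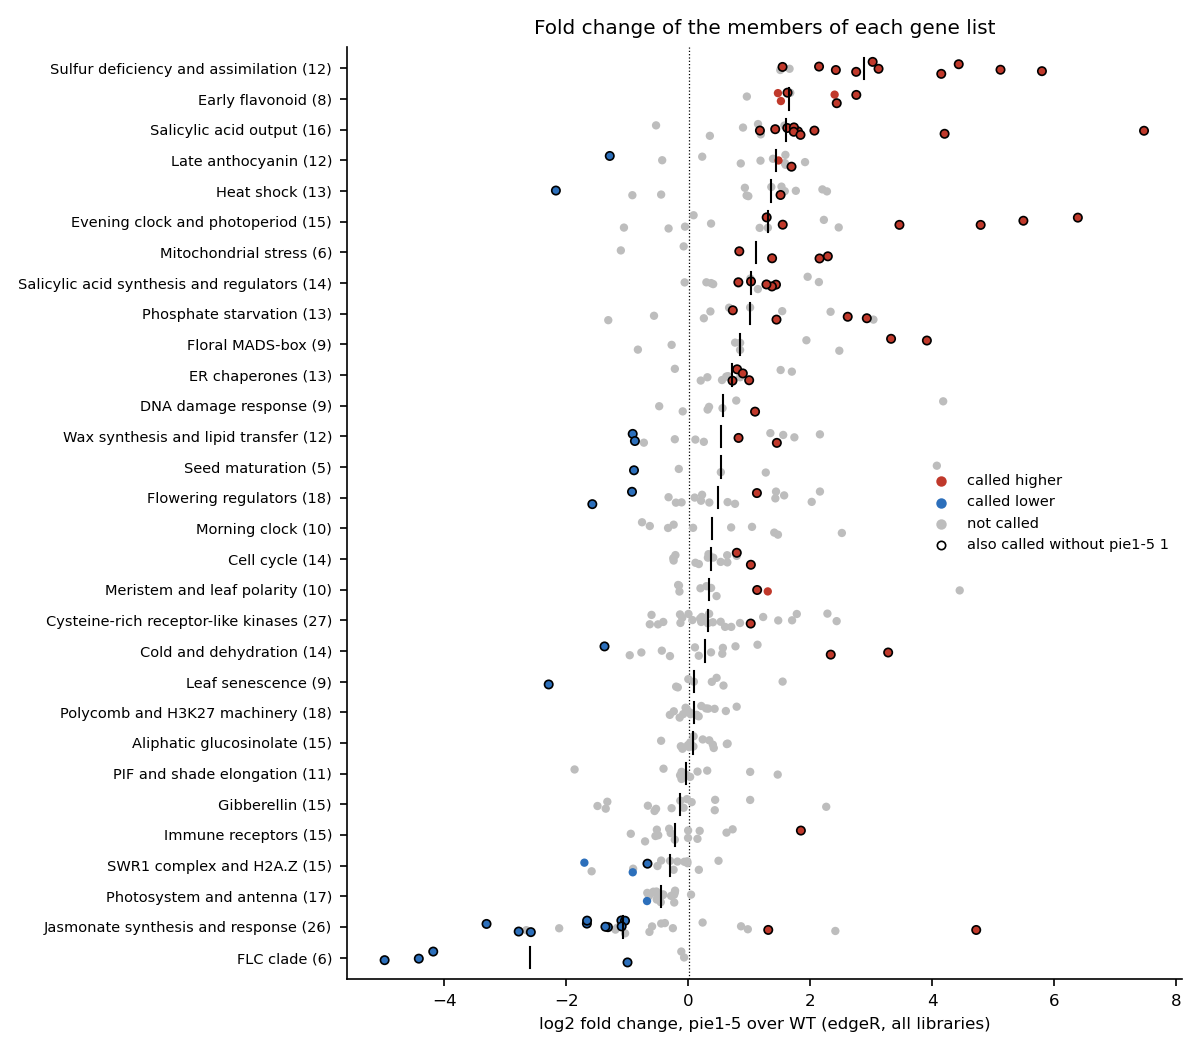
Log2 fold change of pie1-5 over WT for each tested member of 30 of the 36 lists, with the number tested in brackets. Red and blue points are called higher and lower, grey points are not called, and black outlines mark genes also called without pie1-5 1. A bar gives the median of a list and the dotted line the median of all genes tested (0.0096). The sulfur list has the highest median (2.89) and the FLC clade the lowest (-2.59).

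PIE1 transcripts were lower in each pie1-5 library than in each WT library, and the difference did not pass the test. PIE1 had 3.73, 3.95 and 5.69 CPM in pie1-5, against 8.10, 6.86 and 10.1 CPM in WT. edgeR gave PIE1 a log2 fold change of -0.90 ± 0.27 (SE, adjusted p = 0.0565) with all libraries and of -0.79 ± 0.29 (adjusted p = 0.0956) without pie1-5 1. The authors' deposited table gives PIE1 a log2 fold change of -0.89 with an adjusted p of 0.0292. Among 15 tested genes of the SWR1 complex and of H2A.Z, 3 were called lower and none higher. They were SWC6, the zinc finger subunit, SWC2, another subunit, and AT2G47210, a locus with no symbol in the gene table. SWC6 had 0.467, 0.446 and 0.477 CPM in pie1-5, against 1.99, 1.79 and 0.747 CPM in WT. All 3 pie1-5 libraries were close together and below WT, while WT 3 was nearer to them than WT 1 and 2. For SWC6 the log2 fold change was -1.70 ± 0.47 (SE, adjusted p = 0.0378) with all libraries and -1.70 ± 0.57 (adjusted p = 0.0642) without pie1-5 1. SWC2 had a log2 fold change of -0.91 with all libraries and -0.92 without pie1-5 1 (adjusted p = 0.0468 and 0.0604), and AT2G47210 one of -0.67 with all libraries and -0.77 without pie1-5 1 (adjusted p = 0.0413 and 0.0195). The H2A.Z genes HTA8, HTA9 and HTA11 were not called, at -0.013 (adjusted p = 0.992), -0.18 (adjusted p = 0.628) and -0.50 (adjusted p = 0.127) on the log2 scale. ARP6 was at -0.44 (adjusted p = 0.169). SWC6 was not called without pie1-5 1, pie1-5 2, pie1-5 3, WT 1 or WT 2 (adjusted p up to 0.129) and SWC2 was not called without pie1-5 1, pie1-5 2, pie1-5 3, WT 1 or WT 3 (adjusted p up to 0.186). AT2G47210 was not called without pie1-5 2, pie1-5 3, WT 1, WT 2 or WT 3 (adjusted p up to 0.169). Of the 15 SWR1 and H2A.Z genes, 0 were called lower with only the 6 libraries, and 0 (without pie1-5 2 or WT 1) to 1 (without pie1-5 1, pie1-5 3, WT 2 or WT 3) with 1 library left out, against 3 with all 12 libraries. There were 2 with RLE factors, 2 with nuclear genes only and 2 with the replicate block. Over the 15 tested members the median log2 fold change was -0.30, and -0.40 without pie1-5 1. PIE1, AT2G47210, ARP6 and HTA9 each have an overlapping gene model, and with a kit that keeps no strand the reads of such a pair cannot be told apart.

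Of the 6 floral repressors of the FLC clade, FLC, MAF3, MAF4 and MAF5 fell, while FLM and MAF2 were not called. These MADS-box proteins delay flowering, and FLC is the one that vernalization silences. MAF5 had 0.124, 0 and 0.307 CPM in pie1-5, against 7.88, 4.60 and 1.19 CPM in WT. No pie1-5 library came near WT, but WT itself spread widely, with WT 1 highest and WT 3 lowest. edgeR gave MAF5 a log2 fold change of -4.98 ± 0.85 (SE, adjusted p = 0.0028) with all libraries and of -4.89 ± 0.94 (adjusted p = 0.00224) without pie1-5 1. MAF4 had 0.0622, 0.0318 and 0.0682 CPM in pie1-5, against 1.99, 1.39 and 0.308 CPM in WT. WT 3 was again the lowest WT library, and pie1-5 stayed below it. For MAF4 the log2 fold change was -4.42 ± 0.72 (SE, adjusted p = 0.00193) with all libraries and -4.53 ± 0.86 (adjusted p = 0.00195) without pie1-5 1.

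FLC had 0.0934, 0 and 0 CPM in pie1-5, against 0.750, 0.927 and 0.264 CPM in WT, which rests on 3 reads in pie1-5 and 56 in WT. The pie1-5 reads were all in pie1-5 1. The level was 21.2-fold lower by the ratio of counts (95% exact counting interval 6.89 to 106), and without pie1-5 1 it was at least 13.9-fold lower when set against a floor of 3 reads over the group. Without pie1-5 2 it was 14.0-fold lower (4.56 to 70.1). edgeR gave FLC an adjusted p of 0.0162 with all libraries and of 0.00386 without pie1-5 1. MAF3 had 3.02, 2.58 and 3.92 CPM in pie1-5, against 6.11, 6.42 and 6.42 CPM in WT, the smallest of the 4 falls. edgeR gave MAF3 a log2 fold change of -0.99 ± 0.25 (SE, adjusted p = 0.0228) with all libraries and of -0.96 ± 0.28 (adjusted p = 0.0348) without pie1-5 1. FLM had 4.42, 4.90 and 8.80 CPM in pie1-5, against 7.46, 5.44 and 6.68 CPM in WT, and MAF2 had 4.17, 4.81 and 6.95 CPM in pie1-5, against 5.51, 4.85 and 6.33 CPM in WT. In both genes the groups overlapped, with log2 fold changes of -0.11 (adjusted p = 0.852) and -0.066 (adjusted p = 0.915). Both signs turned without pie1-5 1, to 0.073 and 0.085, and in no fit was either gene called. MAF4 and MAF5 kept their calls when each of the 6 libraries was left out in turn. FLC was not called without pie1-5 2, pie1-5 3 or WT 2 (adjusted p up to 0.0531) and MAF3 was not called without pie1-5 2, WT 1, WT 2 or WT 3 (adjusted p up to 0.0784). MAF5 had a log2 fold change of -6.09 without pie1-5 3 and -4.34 without WT 1. Of the 6 FLC clade genes, 2 were called lower with only the 6 libraries, and 2 (without pie1-5 2 or WT 2) to 4 (without pie1-5 1) with 1 library left out, against 4 with all 12 libraries. FLC is among the genes with an overlapping gene model. MAF2 to MAF5 are similar in sequence, and how reads that match several genes were counted is not given in the sources used here.

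**Figure D3:**
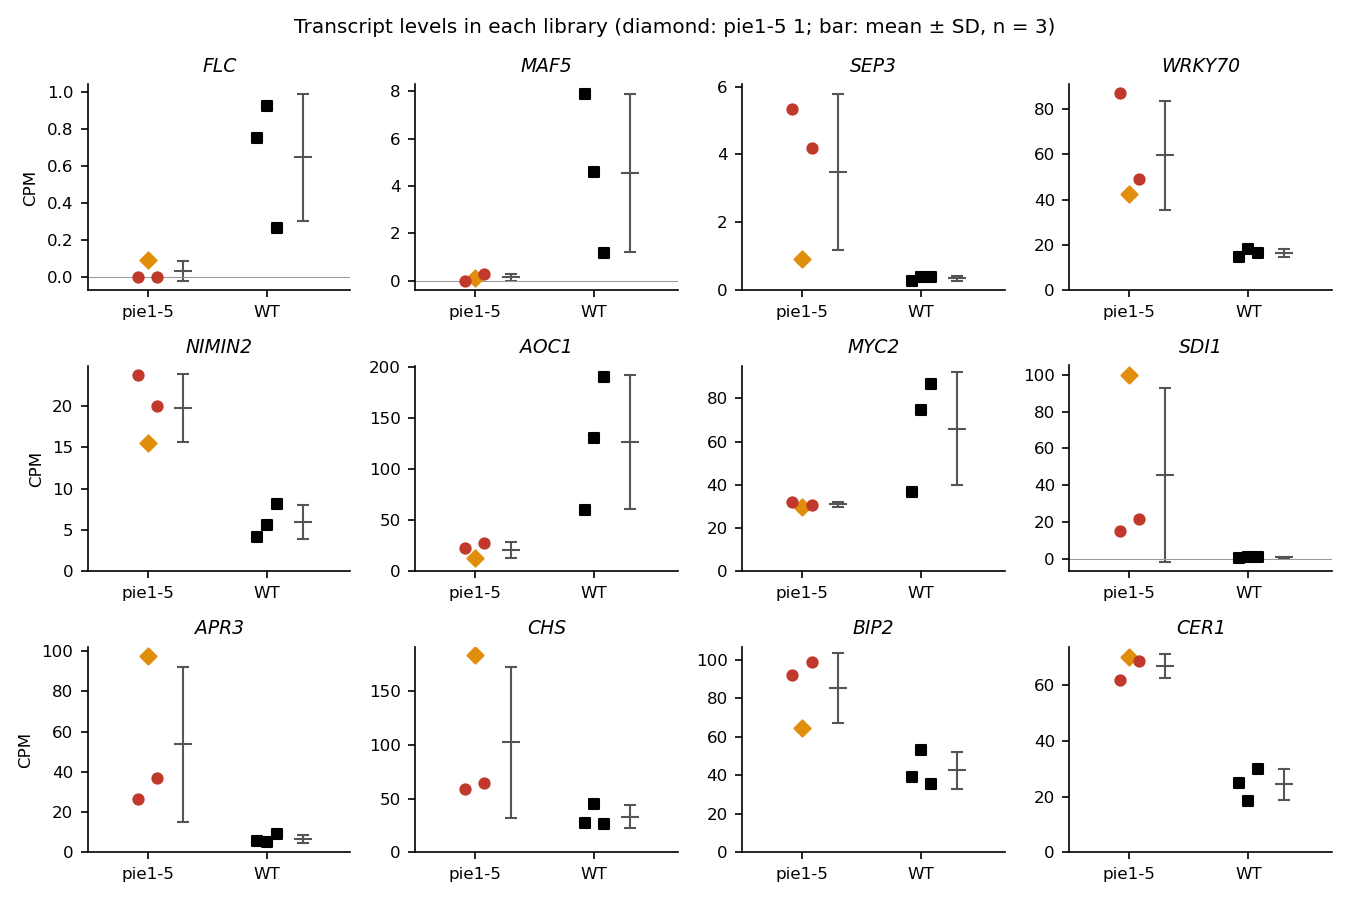
CPM of 12 genes in each pie1-5 and WT library, one panel per gene. Diamonds mark pie1-5 1, circles the other pie1-5 libraries and squares WT, and bars give mean ± SD (n = 3 each). FLC and MAF5 are near 0 in pie1-5. SDI1, APR3 and CHS are highest in pie1-5 1 and still higher than WT in pie1-5 2 and 3.

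Among 18 tested flowering regulators, FD rose and AGL24 and TOE1 fell. FD, the bZIP partner of the florigen FT at the shoot tip, had 5.26, 11.0 and 7.70 CPM in pie1-5, against 3.60, 3.49 and 3.87 CPM in WT. Every pie1-5 library was above WT, pie1-5 2 the most. For FD the log2 fold change was 1.13 ± 0.29 (SE, adjusted p = 0.0268) with all libraries and 1.36 ± 0.28 (adjusted p = 0.00375) without pie1-5 1. AGL24, a MADS-box promoter of flowering, had 1.90, 4.01 and 3.75 CPM in pie1-5, against 10.6, 10.5 and 7.52 CPM in WT. It was lowest in pie1-5 1 and did not overlap WT. edgeR gave AGL24 a log2 fold change of -1.57 ± 0.34 (SE, adjusted p = 0.0109) with all libraries and of -1.3 ± 0.32 (adjusted p = 0.0121) without pie1-5 1. TOE1, an AP2-type repressor of FT, had a log2 fold change of -0.92 with all libraries and -1.06 without pie1-5 1 (adjusted p = 0.0157 and 0.00342). FT had 0.685, 3.53 and 3.24 CPM in pie1-5, against 0.863, 0.710 and 1.19 CPM in WT. Here pie1-5 1 lay just below the WT range and pie1-5 2 and 3 lay above it. For FT the log2 fold change was 1.44 ± 0.47 (SE, adjusted p = 0.0768) with all libraries and 1.89 ± 0.34 (adjusted p = 0.00123) without pie1-5 1. SOC1, a floral integrator, was at 10.1, 11.0 and 13.7 CPM in pie1-5, against 13.7, 10.04 and 16.3 CPM in WT, with overlapping groups and a log2 fold change of -0.20 with all libraries and -0.10 without pie1-5 1 (adjusted p = 0.636 and 0.835). AGL24 kept its call when each of the 6 libraries was left out in turn. FD was not called without pie1-5 2, pie1-5 3, WT 1, WT 2 or WT 3 (adjusted p up to 0.119) and TOE1 was not called without pie1-5 2 or WT 3 (adjusted p up to 0.0837). Of the 18 flowering regulators, 0 were called higher with only the 6 libraries, and 0 (without pie1-5 2, pie1-5 3, WT 1, WT 2 or WT 3) to 2 (without pie1-5 1) with 1 library left out, against 1 with all 12 libraries. There were 4 with DESeq2 and 4 without a filter on low counts.

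Of 9 tested floral MADS-box genes, SEP3 and AP3 rose, both at very low WT levels. SEP3, a cofactor of all floral organ identity proteins, had 0.903, 5.35 and 4.19 CPM in pie1-5, against 0.263, 0.371 and 0.396 CPM in WT. The level in pie1-5 1 was only slightly above WT, and the other pie1-5 libraries were far above it. edgeR gave SEP3 a log2 fold change of 3.33 ± 0.55 (SE, adjusted p = 0.00214) with all libraries and of 3.79 ± 0.35 (adjusted p = 1.13e-06) without pie1-5 1. AP3, which specifies petals and stamens, had 0.654, 3.73 and 2.01 CPM in pie1-5, against 0.0750, 0.309 and 0 CPM in WT. Again pie1-5 1 was the lowest pie1-5 library. For AP3 the log2 fold change was 3.91 ± 1.04 (SE, adjusted p = 0.0316) with all libraries and 4.34 ± 0.99 (adjusted p = 0.00794) without pie1-5 1. SEP2 was not tested, with 29 and 34 reads in pie1-5 2 and 3 and none in the other libraries. The other 7 tested members were not called, among them SEP1 at 1.94 (adjusted p = 0.118), AG at 0.77 (adjusted p = 0.55) and PI at 0.85 (adjusted p = 0.513). SEP3 kept its call when each of the 6 libraries was left out in turn. AP3 was not called without pie1-5 2, pie1-5 3, WT 1 or WT 3 (adjusted p up to 0.121). AP3 had a log2 fold change of 3.25 without pie1-5 2 and 5.59 without WT 2. Of the 9 floral MADS-box genes, 1 was called higher with only the 6 libraries, and 1 (without pie1-5 2, pie1-5 3, WT 1 or WT 3) to 2 (without pie1-5 1 or WT 2) with 1 library left out, against 2 with all 12 libraries. There were 3 with DESeq2. Transcripts of anther and pollen genes were also counted in the same libraries. The locus AT5G07230 had 83 and 20 reads in pie1-5 2 and 3 and AMS, a tapetum factor, 32 and 1, with none in the other libraries. Summed over the 6 anther and pollen genes the level was 0.591, 7.32 and 1.47 CPM in pie1-5, against 0.413, 1.61 and 1.01 CPM in WT. Of these 6 genes 2 were tested, LAP6 and QRT3, neither was called, and MS1 had 1 read in pie1-5 2 and 0 elsewhere. VGD1 had 6 and 8 reads in pie1-5 1 and 2 and 0 in pie1-5 3 and in WT. The part of early flowers or anthers in the floral results was not tested.

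Salicylic acid genes were higher in pie1-5. Of 14 tested genes of its synthesis and regulation, 5 rose and none fell, and of 16 response genes 10 rose and none fell. Without pie1-5 1 these counts were 7 and 13. ICS1, the enzyme that commits chorismate to salicylic acid, had 9.80, 16.5 and 15.7 CPM in pie1-5, against 9.53, 5.65 and 5.36 CPM in WT. The value in pie1-5 1 was only just above WT 1. edgeR gave ICS1 a log2 fold change of 1.03 ± 0.26 (SE, adjusted p = 0.0247) with all libraries and of 1.24 ± 0.24 (adjusted p = 0.00284) without pie1-5 1. EDS5, which exports the precursor from plastids, was at 1.28 with all libraries and 1.3 without pie1-5 1 (adjusted p = 0.022 and 0.0196) on the log2 scale. PBS3, which conjugates it to glutamate, was at 1.37 with all libraries and 1.55 without pie1-5 1 (adjusted p = 0.0223 and 0.0053). EDS1, the hub of immune receptor signalling, was at 0.82 with all libraries and 0.95 without pie1-5 1 (adjusted p = 0.0258 and 0.00738), and SARD1, an activator of ICS1, at 1.44 with all libraries and 1.68 without pie1-5 1 (adjusted p = 0.0323 and 0.00582). PAD4 and CBP60G were called only without pie1-5 1, where they were at 1.43 (adjusted p = 0.00123) and 1.50 (adjusted p = 0.00122). ICS1 was not called without pie1-5 2, pie1-5 3, WT 2 or WT 3 (adjusted p up to 0.103) and EDS5 was not called without pie1-5 3, WT 1 or WT 2 (adjusted p up to 0.0897). PBS3 was not called without pie1-5 2, pie1-5 3, WT 2 or WT 3 (adjusted p up to 0.0728) and EDS1 was not called without pie1-5 3, WT 1, WT 2 or WT 3 (adjusted p up to 0.113). SARD1 was not called without pie1-5 2, pie1-5 3, WT 1 or WT 3 (adjusted p up to 0.129). None of the 5 calls in synthesis thus survived every omission. Of the 14 synthesis and regulation genes, 2 were called higher with only the 6 libraries, and 0 (without pie1-5 3) to 7 (without pie1-5 1) with 1 library left out, against 5 with all 12 libraries. EDS5 and SARD1 are among the genes with an overlapping gene model.

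Among the response genes, WRKY70, a factor that promotes salicylic acid and represses jasmonate responses, had 42.4, 87.1 and 49.1 CPM in pie1-5, against 14.9, 18.3 and 16.6 CPM in WT. All pie1-5 libraries were above WT by a wide gap. For WRKY70 the log2 fold change was 1.84 ± 0.23 (SE, adjusted p = 3.09e-04) with all libraries and 2.04 ± 0.20 (adjusted p = 2.33e-06) without pie1-5 1. NIMIN1, an inhibitor of the co-activator NPR1, had 4.92, 6.05 and 4.67 CPM in pie1-5, against 0, 0 and 0.0879 CPM in WT, with 485 reads in pie1-5 and 2 in WT. Its level was 214-fold higher by the ratio of counts (95% exact counting interval 58.8 to 1769). Both WT reads were in WT 3. Without WT 3 the level was at least 103-fold higher by a floor of 3 reads over the group, and without WT 2 it was 129-fold higher (35.5 to 1069). NIMIN2, a relative, had 15.5, 23.8 and 19.98 CPM in pie1-5, against 4.16, 5.56 and 8.17 CPM in WT. edgeR gave NIMIN2 a log2 fold change of 1.73 ± 0.28 (SE, adjusted p = 0.00202) with all libraries and of 1.88 ± 0.28 (adjusted p = 2.22e-04) without pie1-5 1. WRKY53, a factor linked to leaf senescence and defence, was at 1.43 with all libraries and 1.47 without pie1-5 1 (adjusted p = 0.00149 and 3.93e-04) on the log2 scale. WRKY38, WRKY46, the small peptide gene PNP-A, the thaumatin-like PR5, the protease gene AED1 and PCC1, which is described below with the abundant genes, also rose. For the first 5 of them the log2 fold changes were 4.21 (adjusted p = 0.00772), 2.07 (adjusted p = 0.0308), 1.80 (adjusted p = 0.0132), 1.18 (adjusted p = 0.0452) and 1.63 (adjusted p = 0.028).

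PR1, the usual marker of systemic acquired resistance, had 57.0, 159 and 151 CPM in pie1-5, against 60.6, 70.6 and 34.6 CPM in WT. PR2, a glucanase with the same use, had 47.4, 170.1 and 236 CPM in pie1-5, against 66.0, 88.6 and 43.6 CPM in WT. In both genes pie1-5 1 lay within the WT range, and pie1-5 2 and 3 lay above it. For PR1 the log2 fold change was 1.15 ± 0.51 (SE, adjusted p = 0.198) with all libraries and 1.49 ± 0.44 (adjusted p = 0.038) without pie1-5 1. edgeR gave PR2 a log2 fold change of 1.19 ± 0.50 (SE, adjusted p = 0.166) with all libraries and of 1.62 ± 0.37 (adjusted p = 0.00786) without pie1-5 1. Both were thus called only without pie1-5 1, and so was WRKY54, at 1.25 (adjusted p = 0.0233). NUDT6, WRKY18 and WRKY62 were called in neither fit, at -0.53 (adjusted p = 0.527), 0.36 (adjusted p = 0.633) and 1.58 (adjusted p = 0.359). WRKY70, NIMIN1, NIMIN2, WRKY53 and WRKY38 kept their calls when each of the 6 libraries was left out in turn. WRKY46 was not called without pie1-5 2, pie1-5 3, WT 1 or WT 3 (adjusted p up to 0.106) and PNP-A was not called without pie1-5 2, WT 1 or WT 3 (adjusted p up to 0.0513). PR5 was not called without pie1-5 2, pie1-5 3, WT 1 or WT 3 (adjusted p up to 0.178) and AED1 was not called without pie1-5 2, pie1-5 3, WT 1, WT 2 or WT 3 (adjusted p up to 0.143). WRKY38 had a log2 fold change of 5.66 without WT 2. Of the 16 response genes, 8 were called higher with only the 6 libraries, and 5 (without WT 3) to 13 (without pie1-5 1) with 1 library left out, against 10 with all 12 libraries. WRKY53 is among the genes with an overlapping gene model.

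Immune receptor lists held few calls. Of 15 tested receptors and helpers only ADR1, a helper that acts with intracellular receptors, rose. ADR1 had 5.17, 8.88 and 7.33 CPM in pie1-5, against 1.73, 2.25 and 1.93 CPM in WT, with no overlap. For ADR1 the log2 fold change was 1.85 ± 0.28 (SE, adjusted p = 0.00113) with all libraries and 2.04 ± 0.29 (adjusted p = 1.31e-04) without pie1-5 1. ADR1-L2 joined it without pie1-5 1, at 0.85 (adjusted p = 0.0367). RPP4 and RPP5, members of a clustered receptor family, were at -0.29 (adjusted p = 0.713) and -0.31 (adjusted p = 0.579). Over these 15 genes the median was -0.22, and 0.092 without pie1-5 1. Of 27 cysteine-rich receptor-like kinases only CRK17 rose, at 1.03 with all libraries and 1.14 without pie1-5 1 (adjusted p = 0.0168 and 0.00463). CRK6 and CRK10 joined it without pie1-5 1, at 1.04 (adjusted p = 0.0183) and 0.72 (adjusted p = 0.0294). Over the 27 kinase genes the median was 0.32 with 20 positive, and 0.42 without pie1-5 1. DESeq2 called 4 of the 27 higher, as did edgeR without a filter on low counts. Without pie1-5 3 none was called higher and 1 was called lower. ADR1 kept its call when each of the 6 libraries was left out in turn. CRK17 was not called without pie1-5 3, WT 2 or WT 3 (adjusted p up to 0.0699). CRK17 and CRK10 are among the genes with an overlapping gene model. Reads of this family's tandem copies are uncertain for the same reason as those of MAF2 to MAF5.

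Of 26 tested genes of jasmonate synthesis and response, 10 fell and 2 rose. Of the 26 jasmonate genes, 3 were called lower with only the 6 libraries, and 3 (without WT 3) to 11 (without pie1-5 3 or WT 1) with 1 library left out, against 10 with all 12 libraries. There were 15 without a filter on low counts. The plastid enzymes AOS, AOC1 and AOC2 and the peroxisomal reductase OPR3 fell. So did MYC2, the main activator of jasmonate responses, and the repressors JAZ2, JAZ6 and JAZ9. CYP94B1 and CYP94B3, which oxidise the active hormone, completed the group. AOC1 had 12.9, 22.6 and 28.02 CPM in pie1-5, against 59.6, 130.5 and 190.1 CPM in WT. WT 1 was the lowest WT library and still above every pie1-5 library. edgeR gave AOC1 a log2 fold change of -2.58 ± 0.40 (SE, adjusted p = 0.00139) with all libraries and of -2.32 ± 0.39 (adjusted p = 6.76e-04) without pie1-5 1. AOS had 96.2, 120.4 and 128 CPM in pie1-5, against 175, 446 and 466 CPM in WT. The same order held, with WT 1 nearest to pie1-5. For AOS the log2 fold change was -1.66 ± 0.30 (SE, adjusted p = 0.00392) with all libraries and -1.54 ± 0.31 (adjusted p = 0.0033) without pie1-5 1. MYC2 had 29.9, 32.2 and 30.9 CPM in pie1-5, against 36.8, 74.5 and 86.8 CPM in WT. The pie1-5 libraries were nearly equal, and WT 1 was the closest to them. edgeR gave MYC2 a log2 fold change of -1.09 ± 0.24 (SE, adjusted p = 0.0126) with all libraries and of -1.06 ± 0.26 (adjusted p = 0.0112) without pie1-5 1. JAZ9 was at -1.36 with all libraries and -1.21 without pie1-5 1 (adjusted p = 0.00214 and 0.00155) on the log2 scale, and AOC2 at -1.31 with all libraries and -0.99 without pie1-5 1 (adjusted p = 0.0318 and 0.0367). CYP94B3 had 0.467, 2.80 and 8.42 CPM in pie1-5, against 14.8, 24.7 and 75.8 CPM in WT, where both groups spread widely. For CYP94B3 the log2 fold change was -3.31 ± 0.79 (SE, adjusted p = 0.0191) with all libraries and -2.78 ± 0.65 (adjusted p = 0.00968) without pie1-5 1. CYP94B1 was at -2.78 with all libraries and -2.68 without pie1-5 1 (adjusted p = 0.00739 and 0.0065). OPR3, JAZ2 and JAZ6 were at -1.66 (adjusted p = 0.0373), -1.09 (adjusted p = 0.0242) and -1.03 (adjusted p = 0.0241).

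The other 14 members were not called, and 10 of these had a negative log2 fold change. The repressor JAZ8 and CYP94C1, another oxidase of the hormone, were farthest below 0 among them, at -2.65 (adjusted p = 0.0587) and -2.11 (adjusted p = 0.0936). The authors' deposited table gives JAZ8 a log2 fold change of -2.64 with an adjusted p of 0.0295. LOX2, the lipoxygenase at the start of the pathway, was at -0.25 (adjusted p = 0.732). PDF1.2, a defensin, rose at 1.31 with all libraries and 1.25 without pie1-5 1 (adjusted p = 0.0349 and 0.0317), and THI2.1, a thionin, rose at 4.72 with all libraries and 5.29 without pie1-5 1 (adjusted p = 0.0101 and 1.30e-05). THI2.1 had 0.529, 20.3 and 14.4 CPM in pie1-5, against 0.675, 0.556 and 0.0439 CPM in WT, so the rise was in pie1-5 2 and 3 and pie1-5 1 lay among the WT libraries. VSP1, a storage protein gene, was called only without pie1-5 1, at 2.94 (adjusted p = 0.00464). Summed over the 26 genes the level was 872, 2232 and 2364 CPM in pie1-5, against 1266, 3174 and 3079 CPM in WT, with the lowest library of each genotype numbered 1. Over the 26 tested members the median log2 fold change was -1.06, and -0.77 without pie1-5 1. Without WT 3 it was -0.32. AOC1, AOS, JAZ9 and THI2.1 kept their calls when each of the 6 libraries was left out in turn. MYC2 was not called without WT 3 (adjusted p = 0.0684) and AOC2 was not called without WT 2 or WT 3 (adjusted p up to 0.129). CYP94B3 was not called without pie1-5 2 or WT 3 (adjusted p up to 0.101) and CYP94B1 was not called without WT 3 (adjusted p = 0.0503). OPR3 was not called without pie1-5 2, WT 2 or WT 3 (adjusted p up to 0.192) and JAZ2 was not called without WT 2 or WT 3 (adjusted p up to 0.123). JAZ6 was not called without WT 3 (adjusted p = 0.131) and PDF1.2 was not called without pie1-5 3, WT 1 or WT 3 (adjusted p up to 0.134). CYP94B3 had a log2 fold change of -4.55 without pie1-5 3 and -2.34 without WT 3. CYP94B1 had a log2 fold change of -1.80 without WT 3. OPR3 had a log2 fold change of -2.26 without pie1-5 3. PDF1.2 had a log2 fold change of 2.09 without WT 2. THI2.1 had a log2 fold change of 4.08 without pie1-5 2. MYC2 and THI2.1 are among the genes with an overlapping gene model.

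Genes of sulfur limitation and sulfate assimilation rose in 10 of 12 tested members, and all 10 calls held with any of the 6 libraries left out. Of the 12, 8 were called higher with only the 6 libraries and 9 with DESeq2. SDI1, a repressor of glucosinolate synthesis that sulfur limitation induces, had 99.97, 15.0 and 21.7 CPM in pie1-5, against 0.600, 0.803 and 1.05 CPM in WT. Every pie1-5 library was above WT, and pie1-5 1 was several times above the others. edgeR gave SDI1 a log2 fold change of 5.80 ± 0.69 (SE, adjusted p = 2.53e-04) with all libraries and of 4.49 ± 0.43 (adjusted p = 1.79e-06) without pie1-5 1. LSU2, a small protein named for its response to low sulfur, had 177, 25.2 and 27.8 CPM in pie1-5, against 2.48, 2.81 and 1.23 CPM in WT. Again pie1-5 1 was the highest library and no library of WT overlapped. For LSU2 the log2 fold change was 5.12 ± 0.66 (SE, adjusted p = 4.54e-04) with all libraries and 3.59 ± 0.30 (adjusted p = 3.74e-07) without pie1-5 1. LSU1 had 25.7, 10.9 and 7.26 CPM in pie1-5, against 1.01, 0.556 and 0.439 CPM in WT. edgeR gave LSU1 a log2 fold change of 4.44 ± 0.50 (SE, adjusted p = 1.71e-04) with all libraries and of 3.76 ± 0.44 (adjusted p = 1.62e-05) without pie1-5 1. APR3, an APS reductase that reduces activated sulfate, had 97.7, 26.3 and 36.9 CPM in pie1-5, against 5.74, 5.16 and 8.92 CPM in WT. Its pie1-5 libraries were all above WT, again with pie1-5 1 the highest. For APR3 the log2 fold change was 3.03 ± 0.39 (SE, adjusted p = 4.58e-04) with all libraries and 2.27 ± 0.24 (adjusted p = 4.56e-06) without pie1-5 1. APR1 and APR2 were at 2.42 with all libraries and 1.74 without pie1-5 1 (adjusted p = 5.68e-04 and 5.16e-06) and at 2.76 with all libraries and 1.34 without pie1-5 1 (adjusted p = 0.00548 and 2.99e-04).

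The vacuolar sulfate exporter SULTR4;2 was at 1.55 with all libraries and 1.3 without pie1-5 1 (adjusted p = 0.00658 and 0.00822) on the log2 scale, and GGCT2;1, which recycles glutathione, at 4.15 with all libraries and 2.66 without pie1-5 1 (adjusted p = 0.00446 and 0.00912). SHM7, a serine hydroxymethyltransferase, was at 2.15 with all libraries and 1.54 without pie1-5 1 (adjusted p = 9.56e-04 and 3.34e-05), and AT1G04770 at 3.12 with all libraries and 2.30 without pie1-5 1 (adjusted p = 0.00146 and 7.53e-04). BGLU28 and SULTR1;2 were not called, at 1.66 (adjusted p = 0.421) and 1.51 (adjusted p = 0.297), and SULTR1;1 had no read. Over the 12 tested members the median log2 fold change was 2.89, and 2.00 without pie1-5 1. Genes for aliphatic glucosinolates, the sulfur-rich defence metabolites of Brassicaceae, had no call by edgeR among 15 tested members in either fit, none by DESeq2 and none at an unadjusted p below 0.05. Their activators MYB28 and MYB29 were at 0.35 (adjusted p = 0.57) and 0.42 (adjusted p = 0.569), and over the 15 genes the median was 0.087. SDI1, LSU1, LSU2, APR1, APR2, APR3, SULTR4;2, GGCT2;1, SHM7 and AT1G04770 kept their calls when each of the 6 libraries was left out in turn. GGCT2;1 had a log2 fold change of 4.83 without WT 3. LSU1 to LSU3 are similar genes, and APR1 to APR3 likewise, so reads could be split between copies. APR3 and SULTR4;2 are among the genes with an overlapping gene model.

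Morning clock genes depended on pie1-5 1. With all libraries 6 of 10 had a positive log2 fold change, and edgeR called none, DESeq2 none, while 2 had an unadjusted p below 0.05. Without a filter on low counts 4 were called higher and 2 lower, and with the replicate block 1 was called lower. Leaving out pie1-5 2 gave 1 higher call, and leaving out pie1-5 3 gave 1 lower call. Without pie1-5 1 all 10 were negative and 7 were called lower. CCA1, the partner of LHY, had 44.1, 1.53 and 1.36 CPM in pie1-5, against 4.80, 4.94 and 7.25 CPM in WT. It was highest in pie1-5 1 and lowest in pie1-5 2 and 3, with WT between. edgeR gave CCA1 a log2 fold change of 1.47 ± 0.85 (SE, adjusted p = 0.336) with all libraries and of -1.96 ± 0.36 (adjusted p = 0.00152) without pie1-5 1. For LHY the log2 fold change was 2.52 ± 1.03 (SE, adjusted p = 0.157) with all libraries and -2.03 ± 0.46 (adjusted p = 0.00702) without pie1-5 1. RVE8, RVE1, RVE4, LNK2 and LNK3 were the other 5, at -1.70 (adjusted p = 0.011), -1.81 (adjusted p = 0.00247), -1.52 (adjusted p = 1.16e-05), -2.19 (adjusted p = 4.41e-06) and -2.73 (adjusted p = 3.38e-04) without pie1-5 1. Their values with all libraries were 1.41 (adjusted p = 0.33), 1.05 (adjusted p = 0.464), -0.63 (adjusted p = 0.325), -0.24 (adjusted p = 0.862) and -0.33 (adjusted p = 0.835).

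Evening clock and photoperiod genes were higher in 6 of 15 tested members with all libraries, and without pie1-5 1 in 10, while CDF3 was lower there. The 6 were GI, LUX, FKF1, COR27, ELF4 and AT4G33980. GI, which acts in the photoperiod response, had 7.00, 17.0 and 19.7 CPM in pie1-5, against 5.55, 4.32 and 5.05 CPM in WT. All pie1-5 libraries were above WT, pie1-5 1 the least. edgeR gave GI a log2 fold change of 1.55 ± 0.29 (SE, adjusted p = 0.00513) with all libraries and of 1.89 ± 0.19 (adjusted p = 3.64e-06) without pie1-5 1. LUX, a subunit of the evening complex, had 10.6, 19.7 and 16.7 CPM in pie1-5, against 7.01, 6.02 and 6.24 CPM in WT. It showed the same order. For LUX the log2 fold change was 1.29 ± 0.22 (SE, adjusted p = 0.00252) with all libraries and 1.51 ± 0.18 (adjusted p = 2.61e-05) without pie1-5 1. FKF1, a blue light receptor, had 0.249, 11.2 and 11.9 CPM in pie1-5, against 0.0750, 0.185 and 0.615 CPM in WT. Here pie1-5 1 was at the WT level, and pie1-5 2 and 3 carried the rise. edgeR gave FKF1 a log2 fold change of 4.80 ± 0.94 (SE, adjusted p = 0.0065) with all libraries and of 5.38 ± 0.41 (adjusted p = 1.69e-07) without pie1-5 1. COR27, a repressor in cold and clock pathways, had 0, 12.7 and 9.65 CPM in pie1-5, against 0.113, 0.124 and 0 CPM in WT. It was near 0 in pie1-5 1 as in WT. For COR27 the log2 fold change was 6.39 ± 1.29 (SE, adjusted p = 0.008) with all libraries and 6.98 ± 0.55 (adjusted p = 2.01e-07) without pie1-5 1. ELF4, a second evening complex gene, had no read in pie1-5 1 and 3.15 and 2.45 CPM in pie1-5 2 and 3. With 171 reads in pie1-5 and 3 in WT it was 50.2-fold higher by the ratio of counts (95% exact counting interval 16.9 to 246). Without pie1-5 1 it was 76.8-fold higher by the ratio of counts (95% exact counting interval 25.8 to 376), without pie1-5 2 31.9-fold higher (10.5 to 159), and without WT 3 109-fold higher (19.3 to 4319). PRR5 was not called with all libraries. edgeR gave PRR5 a log2 fold change of 1.31 ± 0.63 (SE, adjusted p = 0.235) with all libraries and of 1.87 ± 0.20 (adjusted p = 4.33e-06) without pie1-5 1. GI, LUX, FKF1 and COR27 kept their calls when each of the 6 libraries was left out in turn. ELF4 was not called without WT 1 or WT 2 (adjusted p up to 0.055) and AT4G33980 was not called without pie1-5 2, pie1-5 3, WT 1 or WT 3 (adjusted p up to 0.0945). FKF1 had a log2 fold change of 5.81 without WT 3. COR27 had a log2 fold change of 5.76 without pie1-5 2. AT4G33980 had a log2 fold change of 4.49 without WT 2. Of the 15 evening and photoperiod genes, 1 was called higher with only the 6 libraries, and 4 (without WT 1) to 10 (without pie1-5 1) with 1 library left out, against 6 with all 12 libraries. There were 9 without a filter on low counts. LUX and FKF1 are among the genes with an overlapping gene model. In the 6 pkl-1 and clf-28 libraries GI was at 14.2 to 21.5 CPM, against 4.32 to 5.55 CPM in WT, and CCA1 at 1.15 to 2.36 CPM.

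**Figure D4:**
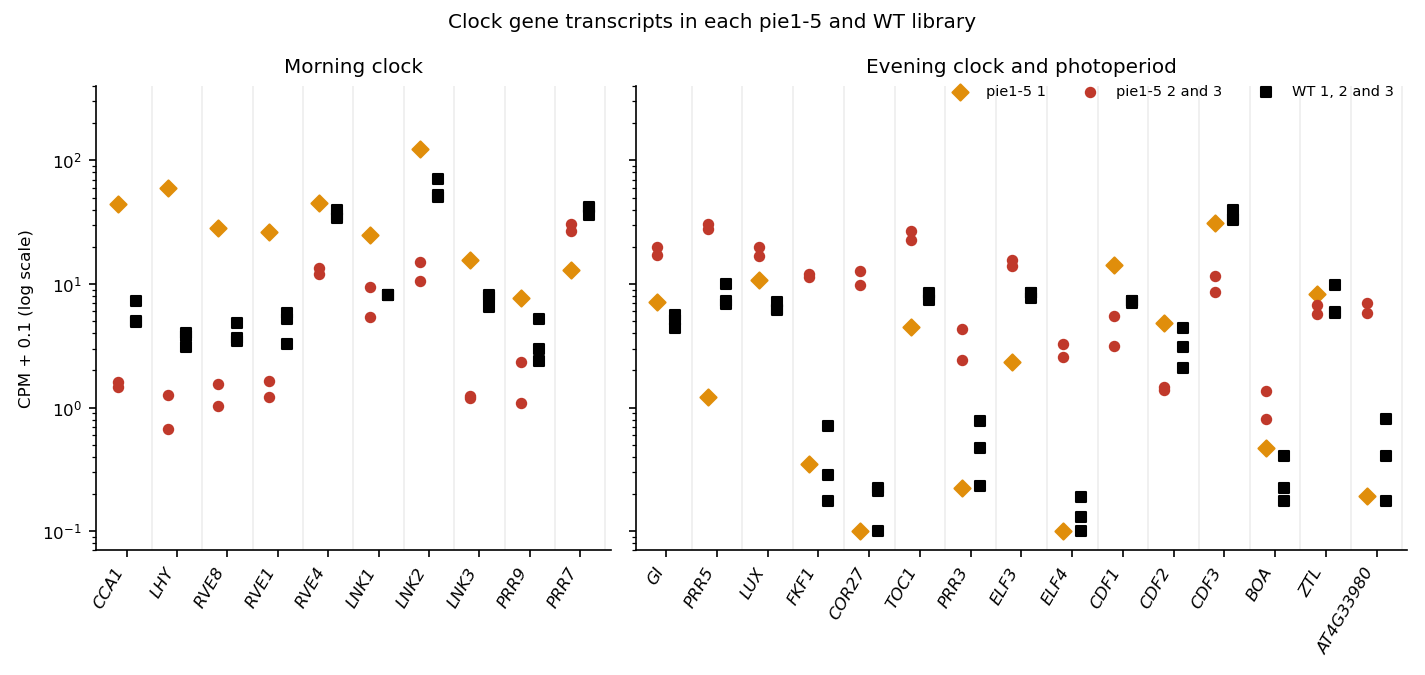
CPM + 0.1 (log axis) of 10 morning genes and 15 evening and photoperiod genes in each library. Diamonds are pie1-5 1, circles pie1-5 2 and 3, and squares WT. For LHY pie1-5 1 lies above WT at 59.6 CPM, and pie1-5 2 and 3 lie below WT at 0.573 and 1.16 CPM. For PRR5 the order is the reverse.

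Early flavonoid genes rose in 6 of 8 tested members, with pie1-5 1 the highest pie1-5 library in each of these 6. CHS, chalcone synthase at the entry of the pathway, had 184, 59.1 and 65.0 CPM in pie1-5, against 27.2, 45.5 and 26.6 CPM in WT. The value in pie1-5 1 was far above those of the other pie1-5 libraries, and those were still above WT. For CHS the log2 fold change was 1.63 ± 0.36 (SE, adjusted p = 0.0138) with all libraries and 0.91 ± 0.23 (adjusted p = 0.0164) without pie1-5 1. CHI, chalcone isomerase, was at 2.44 with all libraries and 1.27 without pie1-5 1 (adjusted p = 0.00862 and 0.00956) on the log2 scale, and FLS1, flavonol synthase, at 2.76 with all libraries and 1.14 without pie1-5 1 (adjusted p = 0.0141 and 0.0347). F3H, UGT78D1 and UGT78D2 were called only with pie1-5 1 included. Their log2 fold changes were 2.40 (adjusted p = 0.0489; 0.24 and 0.716 without pie1-5 1), 1.47 (adjusted p = 0.0236; 0.71 and 0.0586 without pie1-5 1) and 1.52 (adjusted p = 0.0263; 0.68 and 0.0913 without pie1-5 1). CHI kept its call when each of the 6 libraries was left out in turn. CHS was not called without WT 1 or WT 3 (adjusted p up to 0.0651) and FLS1 was not called without WT 3 (adjusted p = 0.0658). UGT78D1 was not called without pie1-5 1, WT 1 or WT 3 (adjusted p up to 0.0982). Of the 8 early flavonoid genes, 0 were called higher with only the 6 libraries, and 1 (without WT 3) to 6 (without pie1-5 2 or pie1-5 3) with 1 library left out, against 6 with all 12 libraries. Of 12 late anthocyanin genes LDOX, which makes anthocyanidins, and the bHLH factor EGL3 rose. MYBL2, a repressor of the branch, fell. Their log2 fold changes were 1.70 (adjusted p = 0.0381; 1.72 and 0.0233 without pie1-5 1), 1.48 (adjusted p = 0.0445; 0.96 and 0.193 without pie1-5 1) and -1.28 (adjusted p = 0.0308; -0.89 and 0.00877 without pie1-5 1). DFR was called only without pie1-5 1, at 1.27 (adjusted p = 0.0426). LDOX was not called without pie1-5 2, pie1-5 3, WT 1 or WT 3 (adjusted p up to 0.105) and EGL3 was not called without pie1-5 1, pie1-5 2, WT 1, WT 2 or WT 3 (adjusted p up to 0.193). MYBL2 was not called without pie1-5 3, WT 1, WT 2 or WT 3 (adjusted p up to 0.0914). LDOX had a log2 fold change of 2.37 without WT 2. Of the 12 late anthocyanin genes, 0 were called higher with only the 6 libraries, and 0 (without WT 1 or WT 3) to 6 (without WT 2) with 1 library left out, against 2 with all 12 libraries. There were 7 with DESeq2, 7 without a filter on low counts, 3 with RLE factors, 3 with nuclear genes only and 0 with the replicate block. CHS and F3H are among the genes with an overlapping gene model.

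Chaperones of the endoplasmic reticulum rose in 4 of 13 tested members, and in 9 without pie1-5 1. BIP2, an HSP70 of the lumen, had 64.6, 92.0 and 98.8 CPM in pie1-5, against 39.1, 53.2 and 35.2 CPM in WT. All pie1-5 libraries exceeded WT, pie1-5 1 by the least. edgeR gave BIP2 a log2 fold change of 1.00 ± 0.19 (SE, adjusted p = 0.0058) with all libraries and of 1.17 ± 0.17 (adjusted p = 2.02e-04) without pie1-5 1. Its near copy BIP1 was at 0.80 with all libraries and 0.98 without pie1-5 1 (adjusted p = 0.018 and 8.13e-04), and reads of these copies are uncertain for the reason given for the MAF genes. The lectin chaperone CNX1 was at 0.90 with all libraries and 1.09 without pie1-5 1 (adjusted p = 0.00841 and 1.31e-04) and the co-chaperone ERDJ3B at 0.73 with all libraries and 0.87 without pie1-5 1 (adjusted p = 0.0275 and 0.00364). Called only without pie1-5 1 were BIP3, CRT1A, PDIL1-1, HSP90.7 and BZIP60, from 0.75 (BZIP60) to 1.87 (BIP3). BIP2 and CNX1 kept their calls when each of the 6 libraries was left out in turn. BIP1 was not called without pie1-5 3 or WT 3 (adjusted p up to 0.0857) and ERDJ3B was not called without pie1-5 2, pie1-5 3, WT 1 or WT 3 (adjusted p up to 0.117). Of the 13 chaperones, 0 were called higher with only the 6 libraries, and 2 (without pie1-5 3) to 9 (without pie1-5 1) with 1 library left out, against 4 with all 12 libraries. There were 7 with DESeq2 and 7 without a filter on low counts.

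Heat shock genes gave 1 rise and 1 fall among 13 tested members, and 10 of the 13 had a positive log2 fold change. The median was 1.36, and 0.60 with 8 positive without pie1-5 1. Summed over the 17 listed genes the level was 61.7, 25.1 and 26.1 CPM in pie1-5, against 20.4, 20.4 and 21.1 CPM in WT. Called higher were 2 with DESeq2 and 4 without a filter on low counts. The co-activator MBF1C rose, at 1.52 with all libraries and 1.26 without pie1-5 1 (adjusted p = 0.00711 and 0.0156), and the immunophilin ROF2 fell, at -2.17 with all libraries and -2.43 without pie1-5 1 (adjusted p = 0.0092 and 0.00534). HSP70 had 20.3, 4.24 and 3.89 CPM in pie1-5, against 1.24, 1.27 and 3.43 CPM in WT. Its pie1-5 libraries were all above WT, led by pie1-5 1, and the difference was not called, at 2.28 with all libraries and 1.05 without pie1-5 1 (adjusted p = 0.0656 and 0.323). MBF1C and ROF2 kept their calls when each of the 6 libraries was left out in turn. MBF1C is among the genes with an overlapping gene model.

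Nuclear genes that respond to mitochondrial dysfunction rose in 4 of 6. AT2G21640 had 13.0, 25.7 and 22.3 CPM in pie1-5, against 2.66, 5.03 and 4.75 CPM in WT, and OM66, an AAA ATPase of the outer membrane, had 9.65, 22.3 and 22.02 CPM in pie1-5, against 4.09, 4.48 and 3.52 CPM in WT. Both were separate from WT, with pie1-5 1 lowest. For AT2G21640 the log2 fold change was 2.29 ± 0.30 (SE, adjusted p = 5.23e-04) with all libraries and 2.53 ± 0.27 (adjusted p = 5.94e-06) without pie1-5 1. edgeR gave OM66 a log2 fold change of 2.15 ± 0.31 (SE, adjusted p = 7.64e-04) with all libraries and of 2.46 ± 0.25 (adjusted p = 2.57e-06) without pie1-5 1. NAC13, a factor that activates this response, was at 1.38 with all libraries and 1.49 without pie1-5 1 (adjusted p = 0.0254 and 0.0139), and the alternative oxidase AOX1A at 0.84 with all libraries and 0.98 without pie1-5 1 (adjusted p = 0.0316 and 0.00972). AOX1D and NDB2 were not called, at -1.1 (adjusted p = 0.55) and -0.073 (adjusted p = 0.941). AT2G21640 and OM66 kept their calls when each of the 6 libraries was left out in turn. NAC13 was not called without pie1-5 3, WT 1 or WT 2 (adjusted p up to 0.0994) and AOX1A was not called without pie1-5 2, pie1-5 3, WT 1 or WT 2 (adjusted p up to 0.124). Of the 6 mitochondrial dysfunction genes, 2 were called higher with only the 6 libraries, and 2 (without pie1-5 3, WT 1 or WT 2) to 4 (without pie1-5 1 or WT 3) with 1 library left out, against 4 with all 12 libraries. Of 128 tested genes of the mitochondrial genome itself, 6 were higher (4.69%) and none lower in both fits. That share is near those over all genes tested, 3.8% with all libraries and 5.05% without pie1-5 1. The median log2 fold change of the 128 was 0.32, and 0.21 without pie1-5 1. The higher mitochondrial read share of pie1-5 is given above.

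Phosphate starvation genes rose in 4 of 13. The acid phosphatase PAP17 had 14.7, 3.98 and 4.57 CPM in pie1-5, against 0.863, 1.42 and 1.49 CPM in WT, highest in pie1-5 1 and still above WT in the others. For PAP17 the log2 fold change was 2.62 ± 0.48 (SE, adjusted p = 0.0044) with all libraries and 1.76 ± 0.39 (adjusted p = 0.00637) without pie1-5 1. The phosphatase PS2, the glycerophosphodiesterase SRG3 and the sulfolipid enzyme SQD1 also rose. They were at 2.93 (adjusted p = 0.00841; 2.04 and 0.044 without pie1-5 1), 1.45 (adjusted p = 0.00855; 1.34 and 0.0103 without pie1-5 1) and 0.73 (adjusted p = 0.0217; 0.50 and 0.0489 without pie1-5 1). PHR1, the factor that directs this response, was lower only without pie1-5 1, at -0.66 (adjusted p = 0.0243). PAP17, PS2 and SRG3 kept their calls when each of the 6 libraries was left out in turn. SQD1 was not called without WT 1, WT 2 or WT 3 (adjusted p up to 0.0768). Of the 13 phosphate starvation genes, 2 were called higher with only the 6 libraries, and 3 (without WT 1, WT 2 or WT 3) to 4 (without pie1-5 1, pie1-5 2 or pie1-5 3) with 1 library left out, against 4 with all 12 libraries. There were 6 with DESeq2 and 6 without a filter on low counts. PAP17 and SRG3 are among the genes with an overlapping gene model.

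Of 14 cold and dehydration genes, COR15B and RD29B rose and COR47 fell. COR15B had 2.86, 35.5 and 36.0 CPM in pie1-5, against 2.21, 3.30 and 9.32 CPM in WT. Only pie1-5 2 and 3 were clear of WT. edgeR gave COR15B a log2 fold change of 2.34 ± 0.64 (SE, adjusted p = 0.0368) with all libraries and of 2.88 ± 0.36 (adjusted p = 3.59e-05) without pie1-5 1. RD29B had 7.25, 4.17 and 4.19 CPM in pie1-5, against 0.563, 0.741 and 0.264 CPM in WT, with every pie1-5 library above WT. For RD29B the log2 fold change was 3.28 ± 0.75 (SE, adjusted p = 0.0159) with all libraries and 2.97 ± 0.81 (adjusted p = 0.0232) without pie1-5 1. COR47, a dehydrin, was at -1.37 with all libraries and -1.08 without pie1-5 1 (adjusted p = 0.0232 and 0.0283), with WT 3 the highest library. COR15B was not called without pie1-5 2, pie1-5 3, WT 1 or WT 2 (adjusted p up to 0.134) and RD29B was not called without WT 1 or WT 3 (adjusted p up to 0.0657). COR47 was not called without WT 3 (adjusted p = 0.142). COR15B had a log2 fold change of 3.16 without WT 3. COR47 had a log2 fold change of -0.77 without WT 3. Of the 14 cold and dehydration genes, 1 was called higher with only the 6 libraries, and 0 (without WT 1) to 2 (without pie1-5 1) with 1 library left out, against 2 with all 12 libraries. COR15B is among the genes with an overlapping gene model.

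Among 12 tested wax and lipid transfer genes, 2 rose and 2 fell. CER1, which makes wax alkanes, had 69.9, 61.7 and 68.6 CPM in pie1-5, against 24.8, 18.5 and 29.8 CPM in WT. The groups were far apart relative to their spread. edgeR gave CER1 a log2 fold change of 1.45 ± 0.18 (SE, adjusted p = 2.93e-04) with all libraries and of 1.42 ± 0.18 (adjusted p = 4.15e-05) without pie1-5 1. The lipid transfer protein gene LTP6 rose too, at 0.83 with all libraries and 0.72 without pie1-5 1 (adjusted p = 0.0113 and 0.0121). CER6 and CER2, which extend very long chain fatty acids, fell, at -0.87 with all libraries and -1.16 without pie1-5 1 (adjusted p = 0.017 and 1.74e-04) and -0.91 with all libraries and -1.14 without pie1-5 1 (adjusted p = 0.0202 and 0.0018). Of the 12 wax and lipid transfer genes, 1 was called higher with only the 6 libraries, and 1 (without WT 3) to 4 (without pie1-5 1) with 1 library left out, against 2 with all 12 libraries. There were 4 with DESeq2 and 6 without a filter on low counts. Called lower were 0 of them with only the 6 libraries, and 0 (without pie1-5 2 or pie1-5 3) to 3 (without pie1-5 1) with 1 left out, against 2 with all 12 libraries. There were 3 without a filter on low counts. The meristem genes KNAT1 and KNAT6 rose, 2 of 10, at 1.13 with all libraries and 1.00 without pie1-5 1 (adjusted p = 0.00884 and 0.0149) and 1.31 with all libraries and 1.22 without pie1-5 1 (adjusted p = 0.0461 and 0.0725). STM was at 0.20 (adjusted p = 0.833). Among 14 cell cycle genes the D-type cyclin CYCD3;1 and the ribonucleotide reductase subunit TSO2 rose, at 0.80 with all libraries and 0.68 without pie1-5 1 (adjusted p = 0.0157 and 0.0249) and 1.03 with all libraries and 0.82 without pie1-5 1 (adjusted p = 0.0178 and 0.0292). GMI1, a DNA repair gene, was the only 1 of 9 damage response genes called, at 1.1 with all libraries and 1.05 without pie1-5 1 (adjusted p = 0.0254 and 0.0349). SEN1, a gene of dark-induced senescence, was the only 1 of 9 senescence genes called. It had 15.3, 79.4 and 43.7 CPM in pie1-5, against 260.1, 211 and 205 CPM in WT, low in all pie1-5 libraries and lowest in pie1-5 1. For SEN1 the log2 fold change was -2.29 ± 0.50 (SE, adjusted p = 0.0124) with all libraries and -1.87 ± 0.41 (adjusted p = 0.00602) without pie1-5 1. VAL1, a repressor of seed genes, fell, at -0.89 with all libraries and -0.81 without pie1-5 1 (adjusted p = 0.00686 and 0.0092), while the other 4 tested genes of the seed maturation list were not called. CER1, KNAT1, SEN1 and VAL1 kept their calls when each of the 6 libraries was left out in turn. LTP6 was not called without WT 3 (adjusted p = 0.0549) and CER6 was not called without pie1-5 2, pie1-5 3, WT 1 or WT 2 (adjusted p up to 0.0655). CER2 was not called without pie1-5 2, pie1-5 3 or WT 3 (adjusted p up to 0.103) and KNAT6 was not called without pie1-5 1, pie1-5 2, pie1-5 3, WT 1 or WT 2 (adjusted p up to 0.15). CYCD3;1 was not called without WT 3 (adjusted p = 0.0688) and TSO2 was not called without WT 2 (adjusted p = 0.0758). GMI1 was not called without pie1-5 3, WT 1 or WT 2 (adjusted p up to 0.0994). SEN1 had a log2 fold change of -2.93 without pie1-5 2. CER2, CYCD3;1, TSO2 and GMI1 are among the genes with an overlapping gene model.

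Of 17 tested photosystem and antenna genes 1 was called, and it was lower. The median log2 fold change of the 17 was -0.45 (-0.42 without pie1-5 1). The called gene was LHCA4, an antenna protein of photosystem I, with 513, 701 and 648 CPM in pie1-5, against 1070.2, 889 and 1011 CPM in WT. edgeR gave LHCA4 a log2 fold change of -0.67 ± 0.18 (SE, adjusted p = 0.0318) with all libraries and of -0.55 ± 0.18 (adjusted p = 0.0544) without pie1-5 1. Without pie1-5 1, LHCB2.1 and RCA were called instead, at -0.73 (adjusted p = 0.0316) and -0.77 (adjusted p = 0.00831). LHCA4 was not called without pie1-5 1, pie1-5 3, WT 1, WT 2 or WT 3 (adjusted p up to 0.111). DESeq2 called 7 of the 17 lower. LHCA4 is among the genes with an overlapping gene model.

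Several lists held no call by edgeR with all libraries and the filter on low counts. Without that filter 3 gibberellin genes were called lower and 1 Polycomb gene higher. With the replicate block 1 gibberellin gene was called lower. Of 18 Polycomb and H3K27 genes 2 had an unadjusted p below 0.05, DESeq2 called 1 higher, and only RING1A was called without pie1-5 1, higher at 0.93 (adjusted p = 0.0242). Of 15 gibberellin genes 6 had an unadjusted p below 0.05, DESeq2 called 1 higher, and only GASA1 was called without pie1-5 1, lower at -2.54 (adjusted p = 1.40e-06). Of 11 genes of PIF and shade elongation 1 had an unadjusted p below 0.05, and DESeq2 called none, as did edgeR without pie1-5 1. The 5 precursor genes of miR156 and miR172 had no read in these libraries.

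The 12 largest rises were taken among genes that were called with and without pie1-5 1, had a mean log2 CPM of 1 or more over the 12 RNA-seq libraries, and had every pie1-5 library above every WT library. COR27 and FKF1, given above, were left out by the last condition. The locus AT1G75945 led the 12. It had 8.34, 5.13 and 4.91 CPM in pie1-5, against 0, 0 and 0 CPM in WT, so WT held no read and the level was at least 168-fold higher by the floor of 3 reads, and at least 102-fold higher without WT 2. Sulfur genes took 5 of the next places, SDI1, LSU2, LSU3, LSU1 and GGCT2;1. LSU3 had 47.7, 14.1 and 14.0 CPM in pie1-5, against 0.488, 0.679 and 1.23 CPM in WT, at 5.00 with all libraries and 4.15 without pie1-5 1 (adjusted p = 1.12e-04 and 2.57e-06). Others were AT3G53980, AT3G61920 and AT2G21130, at 3.84 (adjusted p = 5.09e-04), 3.39 (adjusted p = 0.00212) and 3.20 (adjusted p = 0.00212). ARD3, an enzyme of methionine salvage, had 14.1, 8.88 and 21.2 CPM in pie1-5, against 0.938, 2.25 and 1.099 CPM in WT. For ARD3 the log2 fold change was 3.34 ± 0.59 (SE, adjusted p = 0.00319) with all libraries and 3.37 ± 0.58 (adjusted p = 8.20e-04) without pie1-5 1. SEP3 was also among the 12, and AT4G13577 was 10.3-fold higher by the ratio of counts (95% exact counting interval 3.24 to 52.2). Its 3 WT reads were all in WT 2, and without WT 2 it was at least 6.21-fold higher by the floor. AT1G75945, LSU3, AT3G53980, AT3G61920, AT2G21130 and ARD3 kept their calls when each of the 6 libraries was left out in turn. AT4G13577 was not called without WT 1 or WT 3 (adjusted p up to 0.0514). AT3G61920 had a log2 fold change of 4.06 without WT 3.

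Under the same conditions in the other direction, some of the largest falls left almost no reads in pie1-5. MAP1B, a plastid methionine aminopeptidase, had 0.0934, 0 and 0.136 CPM in pie1-5, against 3.23, 3.49 and 5.80 CPM in WT. edgeR gave MAP1B a log2 fold change of -5.70 ± 0.53 (SE, adjusted p = 2.63e-05) with all libraries and of -5.88 ± 0.63 (adjusted p = 5.25e-06) without pie1-5 1. AT2G40960 had 0.218, 0.159 and 0.443 CPM in pie1-5, against 9.86, 15.5 and 9.19 CPM in WT, at -5.39 with all libraries and -5.26 without pie1-5 1 (adjusted p = 2.19e-07 and 6.59e-08). Its neighbour AT2G40955 had 0.249, 0.159 and 0.136 CPM in pie1-5, against 8.48, 12.1 and 7.69 CPM in WT, and AT4G15096, on another chromosome, 0.0934, 0.159 and 0.136 CPM in pie1-5, against 8.48, 12.1 and 7.82 CPM in WT. Both were near 0 in pie1-5 only, and their counts were equal in 7 of 12 RNA-seq libraries, so the same reads could stand behind both. QQS, an orphan gene of Arabidopsis that affects starch content, had 0.560, 0.0637 and 0.545 CPM in pie1-5, against 16.6, 1.85 and 6.20 CPM in WT. WT spread widely, with WT 1 the highest and WT 2 the lowest library. For QQS the log2 fold change was -4.38 ± 0.75 (SE, adjusted p = 0.0028) with all libraries and -4.75 ± 0.85 (adjusted p = 0.00122) without pie1-5 1. RAP2.6, an ERF factor of wounding and stress, had 0.747, 2.04 and 1.47 CPM in pie1-5, against 9.11, 18.4 and 57.5 CPM in WT, highest in WT 3. edgeR gave RAP2.6 a log2 fold change of -4.32 ± 0.75 (SE, adjusted p = 0.00305) with all libraries and of -4.01 ± 0.78 (adjusted p = 0.00247) without pie1-5 1. MAPKKK6, a MAP kinase kinase kinase, was at -3.47 with all libraries and -3.37 without pie1-5 1 (adjusted p = 2.73e-04 and 1.54e-04). AT5G05060, AT5G05040 and AT1G62510 were at -3.54 (adjusted p = 4.34e-05), -3.48 (adjusted p = 0.00305) and -3.24 (adjusted p = 6.05e-04), and AT1G62510 at -4.15 (adjusted p = 1.82e-07) without pie1-5 1. MAF5 and CYP94B3, described above, complete the 12. MAP1B, AT4G15096, AT2G40955, AT2G40960, QQS, RAP2.6, AT5G05060, AT5G05040, MAPKKK6 and AT1G62510 kept their calls when each of the 6 libraries was left out in turn. MAP1B had a log2 fold change of -6.34 without pie1-5 3. QQS had a log2 fold change of -3.34 without WT 1. RAP2.6 had a log2 fold change of -3.28 without WT 3. AT5G05060 had a log2 fold change of -4.41 without pie1-5 2. AT5G05040 had a log2 fold change of -4.42 without pie1-5 2. MAPKKK6 and AT1G62510 are among the genes with an overlapping gene model.

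By difference in mean CPM under these conditions, which admit no overlap of the groups, the largest rise was in PCC1. It is a small gene that follows salicylic acid. PCC1 had 386, 591 and 419 CPM in pie1-5, against 133, 163 and 123 CPM in WT, and the neighbouring AT3G22235 had 378, 563 and 397 CPM in pie1-5, against 127, 163 and 118 CPM in WT. The levels of these neighbours were close in every library, so reads that match both could stand behind both. For PCC1 the log2 fold change was 1.74 ± 0.37 (SE, adjusted p = 0.0115) with all libraries and 1.86 ± 0.36 (adjusted p = 0.00258) without pie1-5 1. GER3, a germin-like protein gene, had 136, 225 and 239 CPM in pie1-5, against 84.5, 91.3 and 74.4 CPM in WT. edgeR gave GER3 a log2 fold change of 1.26 ± 0.20 (SE, adjusted p = 0.00191) with all libraries and of 1.48 ± 0.16 (adjusted p = 7.79e-06) without pie1-5 1. ATMG01200 and ATMG00660, both of the mitochondrial genome, were at 0.66 with all libraries and 0.57 without pie1-5 1 (adjusted p = 0.028 and 0.0398) and 0.84 with all libraries and 0.78 without pie1-5 1 (adjusted p = 0.00697 and 0.00565). The largest fall was in AT2G45180, with 995, 1158 and 867 CPM in pie1-5, against 2602, 1929.9 and 1613 CPM in WT. For AT2G45180 the log2 fold change was -1.03 ± 0.24 (SE, adjusted p = 0.0175) with all libraries and -1.01 ± 0.25 (adjusted p = 0.0138) without pie1-5 1. The antenna gene LHCB2.3 had 338, 346 and 220.1 CPM in pie1-5, against 761, 793 and 684 CPM in WT. edgeR gave LHCB2.3 a log2 fold change of -1.31 ± 0.22 (SE, adjusted p = 0.00214) with all libraries and of -1.39 ± 0.23 (adjusted p = 4.98e-04) without pie1-5 1. CSD2, the plastid copper/zinc superoxide dismutase, had 241, 146 and 104 CPM in pie1-5, against 357, 449 and 377 CPM in WT. For CSD2 the log2 fold change was -1.27 ± 0.28 (SE, adjusted p = 0.0123) with all libraries and -1.66 ± 0.24 (adjusted p = 1.69e-04) without pie1-5 1. AOS and AOC2 filled the other places. GER3, ATMG00660, LHCB2.3 and CSD2 kept their calls when each of the 6 libraries was left out in turn. PCC1 was not called without WT 3 (adjusted p = 0.0554) and AT3G22235 was not called without WT 1 or WT 3 (adjusted p up to 0.0658). ATMG01200 was not called without pie1-5 3, WT 1, WT 2 or WT 3 (adjusted p up to 0.105) and AT2G45180 was not called without pie1-5 3 or WT 1 (adjusted p up to 0.0875). LHCB2.3 is among the genes with an overlapping gene model.

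The genes on which pie1-5 1 differed most from pie1-5 2 and 3 were ELIP2, LHY, AT2G27420, COL2, ELIP1 and AT1G56300. ELIP2, a light stress protein of thylakoids, had 91.5, 1.40 and 0.886 CPM in pie1-5, against 1.50, 2.63 and 1.85 CPM in WT. ELIP1, its relative, had 55.2, 1.56 and 1.33 CPM in pie1-5, against 1.28, 1.45 and 1.93 CPM in WT. In both, pie1-5 2 and 3 lay at or near the WT range. edgeR gave ELIP2 a log2 fold change of 3.96 ± 1.15 (SE, adjusted p = 0.0461) with all libraries and of -0.79 ± 0.54 (adjusted p = 0.403) without pie1-5 1. For ELIP1 the log2 fold change was 3.64 ± 1.04 (SE, adjusted p = 0.0441) with all libraries and -0.10 ± 0.61 (adjusted p = 0.951) without pie1-5 1. Each of these signs turned without pie1-5 1. COL2, a CONSTANS-like gene, had 50.3, 0.732 and 1.02 CPM in pie1-5, against 8.48, 7.17 and 3.96 CPM in WT, with WT between pie1-5 1 and the others. edgeR gave COL2 a log2 fold change of 1.41 ± 0.98 (SE, adjusted p = 0.443) with all libraries and of -2.89 ± 0.51 (adjusted p = 9.73e-04) without pie1-5 1. AT2G27420 had 45.6, 0.923 and 0.477 CPM in pie1-5, against 0.450, 0.340 and 0.264 CPM in WT. For AT2G27420 the log2 fold change was 5.45 ± 1.34 (SE, adjusted p = 0.022) with all libraries and 0.99 ± 1.09 (adjusted p = 0.641) without pie1-5 1. AT1G56300 had 0.934, 29.8 and 32.6 CPM in pie1-5, against 3.08, 3.77 and 5.05 CPM in WT, high in pie1-5 2 and 3 and below WT in pie1-5 1. edgeR gave AT1G56300 a log2 fold change of 2.41 ± 0.69 (SE, adjusted p = 0.0441) with all libraries and of 2.98 ± 0.21 (adjusted p = 6.44e-08) without pie1-5 1. So the calls of ELIP1, ELIP2 and AT2G27420 rest on pie1-5 1. ELIP1 was not called without pie1-5 1, WT 1, WT 2 or WT 3 (adjusted p up to 0.951) and ELIP2 was not called without pie1-5 1, WT 1, WT 2 or WT 3 (adjusted p up to 0.403). AT2G27420 was not called without pie1-5 1, WT 1, WT 2 or WT 3 (adjusted p up to 0.641) and AT1G56300 was not called without pie1-5 2, pie1-5 3, WT 1, WT 2 or WT 3 (adjusted p up to 0.141). COL2 and AT1G56300 are among the genes with an overlapping gene model.

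Markers of shoot tissues were present in both genotypes. Summed over 5 mesophyll genes the level was 11944, 10486 and 9752 CPM in pie1-5, against 11283, 11839 and 11933 CPM in WT. None was called with all libraries, and without pie1-5 1 only RCA, given above, was called, lower. Summed over 6 epidermis and guard cell genes it was 907, 509 and 436 CPM in pie1-5, against 639, 659 and 621 CPM in WT, so pie1-5 1 was the highest library and pie1-5 2 and 3 the lowest. Of these 6 only FAMA, a guard cell factor, was called lower, at -0.77 with all libraries and -0.72 without pie1-5 1 (adjusted p = 0.0262 and 0.0355), and FDH and MYB60 joined it without pie1-5 1. No vascular marker was called, among 4 tested. Of the root markers PYK10, a beta-glucosidase gene, rose, with 56.1, 69.8 and 69.2 CPM in pie1-5, against 22.4, 35.5 and 24.3 CPM in WT. For PYK10 the log2 fold change was 1.25 ± 0.20 (SE, adjusted p = 0.00149) with all libraries and 1.35 ± 0.19 (adjusted p = 1.44e-04) without pie1-5 1. CASP1 was not called, at 1.60 (adjusted p = 0.565), COBL9 and EXP7 had no read, and RHD6 and IRT1 had none in pie1-5 except 3 reads of IRT1 in pie1-5 2. In WT, RHD6 had 7 reads in WT 2 and IRT1 had 1 in WT 1. BGLU21 had 9, 1 and 1 reads in pie1-5 and none in WT. Summed over the 7 root genes the level was 56.5, 70.2 and 69.6 CPM in pie1-5, against 22.7, 35.7 and 24.3 CPM in WT, nearly all of it PYK10. Root or flower material in the shoot samples was not tested beyond these values. PYK10 kept its call when each of the 6 libraries was left out in turn. FAMA was not called without pie1-5 2, WT 1 or WT 2 (adjusted p up to 0.0936). PYK10 is among the genes with an overlapping gene model.

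Some called genes stood in runs along a chromosome, which were described without a test. A tested neighbour called alike stood beside 13.8% of 769 higher and 13.2% of 725 lower genes, against 7.49% and 7.02% of 20103 genes placed on the chromosomes. Runs of 3 included MAF3, MAF4 and MAF5, and MAP1B, AOC1 and AOC2, all lower, and PCC1 with AT3G22235 and AT3G22240, all higher. These runs were named after their values were seen.

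The authors also deposited tables of chromatin regions that set pie1-5 against WT, 2 replicates each for H2A.Z and for H3K27me3, the Polycomb mark. The table of a replicate rests on 1 pie1-5 library, and the ratio of read densities is the authors' own value. The H3K27me3 tables share 1 WT library, so they are not independent of each other. Over all H2A.Z regions the median ratio of pie1-5 over WT was 0.458 in replicate 1 and 0.751 in replicate 2, and over all H3K27me3 regions it was 0.758 and 0.898. The replicates thus differ in level, and ratios are compared within a replicate only. As a check of gene placement, 26 of 30 floral, FLC clade and seed genes overlapped an H3K27me3 region, against 12 and 8 after a shift of 20000 bp either way.

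The share of genes in H2A.Z regions was largest among the higher genes in both tables. A region of replicate 1 overlapped 87.5% of 769 higher genes, 61.2% of 725 lower genes and 71.5% of 18609 genes not called. In replicate 2 the shares were 88.7%, 69.1% and 76.6%. Counting only regions that cover at least 50% of the gene body, the shares were 60.1%, 29.1% and 32.6% in replicate 1 and 60.9%, 35.7% and 34.7% in replicate 2. Median ratios were close between calls, at 0.441 for higher, 0.494 for lower and 0.438 for uncalled genes in replicate 1, and 0.758, 0.797 and 0.758 in replicate 2. Of the salicylic acid response genes all 16 overlapped a region in replicate 1 and 15 in replicate 2. WRKY70 lay in regions with ratios of 0.519 and 0.474 in replicates 1 and 2, NIMIN1 with 0.456 and 0.685 and SEP3 with 0.572 and 0.722. FLC lay in regions of 0.459 and 0.856, MAF4 of 0.464 and 0.702 and MAF5 of 0.412 and 0.663. SDI1 had 0.444 and 0.970 and CHS 0.640 and 1.05, and AOC1 0.708 and 2.45, above 1 in replicate 2. No test was made of these shares or ratios, and gene length was not matched between the calls.

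**Figure D5:**
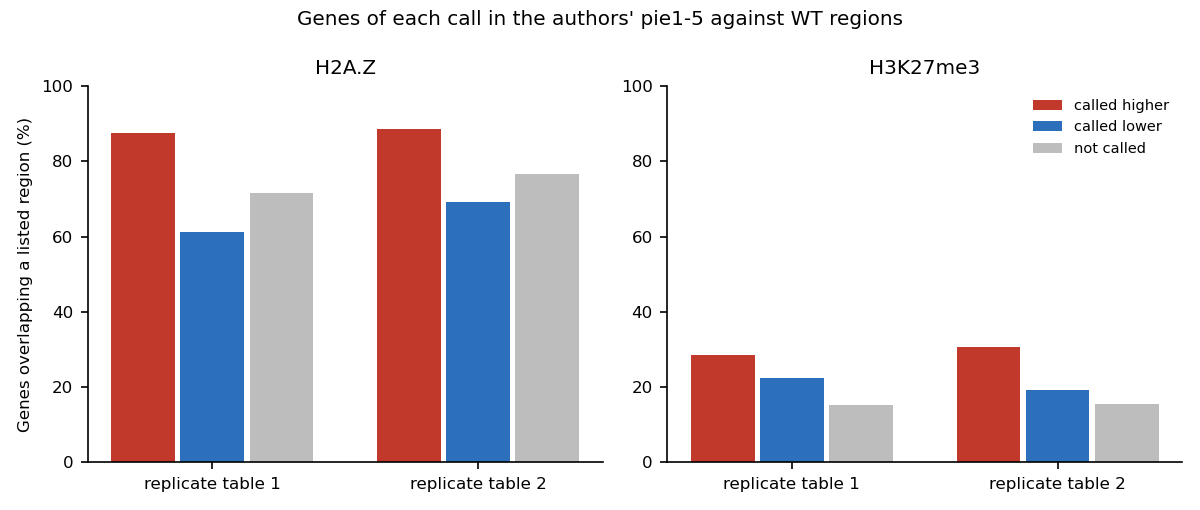
Share of genes (%) that overlap a region of the authors' pie1-5 tables, for H2A.Z (left) and H3K27me3 (right), by call in RNA-seq with all libraries (769 higher, 725 lower and 18609 not called). Higher genes have the largest share in all 4 tables, and lower genes have the smallest share for H2A.Z.

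H3K27me3 regions overlapped 28.5% of higher, 22.5% of lower and 15.2% of uncalled genes in replicate 1, and 30.7%, 19.3% and 15.6% in replicate 2. Median ratios were 0.669 for higher, 0.883 for lower and 0.752 for uncalled genes in replicate 1. In replicate 2 they were 0.913, 0.855 and 0.885, so the order of higher and lower genes was not the same in both tables. SEP3 lay in regions with ratios of 0.611 and 0.816, FLC of 0.735 and 0.860, MAF4 of 0.810 and 0.715 and MAF5 of 0.879 and 0.496. With the genes called in both fits the H2A.Z shares were 87.9% of 629 higher and 60.9% of 596 lower genes in replicate 1, close to those with all libraries.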

How the data were processed

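RNA was extracted from shoots with RNeasy columns and libraries were made with the ThruPLEX DNA-seq kit, which keeps no strand, per the labels' protocols. The deposited table holds the authors' read count per gene, with no normalization; per the submitters' processing notes, Trimmomatic, Bowtie2 and edgeR were used and the build was TAIR10, while versions, the read counter and the treatment of reads matching several genes are not given. A further deposited table gives the authors' log2 fold change and p-value with FDR for each gene, and the region tables give the authors' ratio of read density (SICER, per the submitters' processing notes).

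Counts of all 12 RNA-seq libraries were modelled in R 4.3.3 by edgeR 4.0.16 (filterByExpr, TMM scaling, quasi-likelihood F test, Benjamini-Hochberg adjustment over 20375 genes), with genotype as the only term and pie1-5 over WT as the contrast. Every adjusted p in the text comes from this test unless another tool or the authors' table is named, and SE is the size of the log2 fold change divided by the root of F. On simulated counts for this comparison over 20375 genes, the test recovered 27% of 100 genes changed 2-fold and 89% of 100 changed 4-fold, with 7 false calls. The changed genes all had a mean of at least 1 CPM, so recovery of genes below that level was not measured. No simulated library was made to deviate as pie1-5 1 did, so these figures do not cover such a library. A group with no read was set to a floor of 3 reads over the group, and ratios with 1 to 3 reads in a group carry an exact 95% interval that covers counting error only.

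Named genes were PIE1, the FLC clade, FT, SOC1, PR1, PR2, ICS1, CCA1, LHY, GI and PRR5; the 12 largest rises and falls, and the 5 largest in mean CPM, among genes called with and without pie1-5 1, with no overlap of the groups and an average log2 CPM not below 1; up to 4 called members per list; and the 6 genes of at least 10 CPM on which pie1-5 1 deviated most in log2(CPM + 0.1). Other list members named to complete a list's counts were chosen after their values were seen. The comparison, the lists and this rule were chosen with earlier results of these data known. Symbols and the order of neighbours came from the RefSeq gene table of the reference, which holds 98.7% of the IDs tested (20103), and the chromosome positions of genes served only to place them in the authors' regions. Alternatives were RLE factors, DESeq2 1.42.0, no filter, only these 6 libraries, nuclear genes only, the replicate number as a block, regions covering at least 50% of a gene, and leaving out each library. Motifs in promoters were not analysed here.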

Additional observations from a re-analysis of the deposited data

How the results depend on the processing

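The count of genes higher in pie1-5 RNA-seq was 775 and that of genes lower in pie1-5 RNA-seq was 725. Without a filter on low counts there were 1321 and 1037, with DESeq2 1137 and 922, with RLE factors 827 and 677, with nuclear genes only 810 and 703, and with only the 6 pie1-5 and WT libraries, which leaves fewer samples to estimate the spread, 306 and 200. Leaving out 1 library at a time gave 374 to 1029 higher and 381 to 979 lower calls, the most without pie1-5 1 and the fewest without WT 3. The log2 fold change of PIE1 passed the threshold with DESeq2 (-0.88, adjusted p = 0.0406), with no filter (-0.90, adjusted p = 0.00685) and without pie1-5 3 (-1.11, adjusted p = 0.0443), and was between -1.11 and -0.74 with any 1 library left out. The cause was not tested.

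Same-numbered libraries did not deviate together (correlations 0.022, -0.034 and 0.038 across genes, where the numbers pair samples only above 0.1), so the numbers were not used to pair samples. With the replicate block there were 752 higher and 757 lower calls, and PIE1 was at -0.91 (adjusted p = 0.0225).

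Among the 115 genes named by the rule, 5 that were called with or without pie1-5 1 had the opposite sign without it. CCA1 was then at -1.96 (up to 2.01 with another library left out), LHY at -2.03 (up to 3.09), ELIP2 at -0.79 (up to 4.53), COL2 at -2.89 (up to 1.97) and ELIP1 at -0.10 (up to 4.19). FLM and MAF2, called in no fit, also changed sign, FLM without pie1-5 1 (0.073) or pie1-5 2 (0.018) and MAF2 without pie1-5 1 (0.085), pie1-5 2 (0.00053) or WT 3 (0.039). Of the 115 genes, 114 kept direction and side of the threshold with RLE factors, 107 with DESeq2, 106 with no filter, 105 with the replicate block, 62 with only the 6 libraries and 78 to 97 with 1 library left out. With nuclear genes only, 112 of 113 did. The 97 belongs to the fit without pie1-5 1. Genes taken as the largest rises and falls had to be called alike in that fit, so the rule fixed their direction and side of the threshold there. The rule also took 6 genes because pie1-5 1 deviated on them. Genes of low counts are limited by depth: FLC had 3 reads in pie1-5 and NIMIN1 had 2 in WT.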
